A study of Homo sapiens with 12 samples.

Results

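The genes described here are 37 cytokines, chemokines, NF-κB subunits, NF-κB regulators and NF-κB target genes, given as a list of gene symbols and found by symbol in a table of 60664 genes. All 37 were present, and each symbol was matched to 1 row. The table covers 12 RNA-seq libraries of MDA-MB-231, an established human line of triple-negative breast cancer cells. The groups were wild-type (WT) cells in normoxia, WT cells held in hypoxia for 24 hr, and CCAR2-/- (CCAR2 KO) cells in normoxia, with 4 libraries each. CCAR2 encodes DBC1, a nuclear protein known as a regulator of the deacetylase SIRT1. The study compared the transcriptional response to hypoxia with that to loss of CCAR2. The KO was made with CRISPR/Cas9 from a lentiviral vector, and the sources used here do not say whether the sequenced KO cells were 1 clone or a pool. The methods call the replicates biological but give other numbers of them than the labels, and no source used here says that the 4 libraries of a group came from separate cultures, so the p-values measure the spread between these libraries, part of which may be technical. KO cells in hypoxia were not among the libraries analysed here.

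NF-κB is a family of transcription factors formed from pairs of the subunits RELA, RELB, REL, NFKB1 (p105, processed to p50) and NFKB2 (p100, processed to p52). In resting cells the dimers are held in the cytoplasm by IκB proteins such as NFKBIA. Cytokine receptors and Toll-like receptors activate the IKK kinase complex, which marks IκB for degradation and frees the canonical dimers, whereas the non-canonical arm runs through MAP3K14 and the processing of p100 in RELB complexes. Many of the genes that NF-κB switches on encode secreted cytokines and chemokines, and others encode its own inhibitors. Triple-negative breast cancer lines such as MDA-MB-231 are known to make IL6, CXCL8 and colony-stimulating factors.

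The κB consensus, a degenerate motif searched on both strands, was looked for in the RefSeq promoter table of GRCh38.p14, which holds 300 bases around each start, most of them upstream. Of the 37 members 30 had an entry and 16 of these held the consensus, which is 53.33% against 7.09% of the 27305 genes with an entry. CCL2, CCL5, CSF1, CSF3, CXCL16, LIF and RELB had no entry. The AP-1 motif TGANTCA, searched on both strands, was in 4 of the 30 (13.33% against 9.37% of all genes). The hypoxia response core, ACGTG or GCGTG on either strand, was in 17 of the 30 (56.67% against 52.44%), and TATAAA on the forward strand was in 8 (26.67% against 8.99%). These matches describe letters in a window and are not binding sites. The following stretches show how alike the matches are. They were chosen after the matches were seen and are read 5′ to 3′ along the gene. Capitals mark the first match of the window, with any match that begins at its next base. Further matches are in lower case or outside the stretch.
CXCL1: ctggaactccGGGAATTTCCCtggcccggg
CXCL2: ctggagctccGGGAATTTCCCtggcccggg
CXCL3: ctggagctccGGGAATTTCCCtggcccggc
CXCL5: catgagttcaGGGAATTTCCCcagcatccc
NFKB2: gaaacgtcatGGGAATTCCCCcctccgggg
NFKBIA: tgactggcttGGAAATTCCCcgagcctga
BIRC3: tttgggtcatGGAAATCCCCgagtgggtt
TNFAIP3: acgtgactttGGAAAGTCCCgtggaaatc

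The stretches lie at chr4:73869304-73869333 (plus strand) for CXCL1, chr4:74099254-74099283 (minus) for CXCL2, chr4:74038749-74038778 (minus) for CXCL3 and chr4:73998749-73998778 (minus) for CXCL5. Those of the regulators lie at chr10:102394461-102394490 (plus) for NFKB2, chr14:35404812-35404840 (minus) for NFKBIA, chr11:102317275-102317303 (plus) for BIRC3 and chr6:137867182-137867210 (plus) for TNFAIP3. The first capital is at position -79 from the start in CXCL1, -78 in CXCL2, -79 in CXCL3 and -91 in CXCL5, and these 4 chemokine genes share the same capitals. It is at -107 in NFKB2, -81 in NFKBIA, -199 in BIRC3 and -67 in TNFAIP3. BIRC3 holds a further match at -135. TNFAIP3 holds one at -55, which begins in the lower-case end of its stretch. NFKB2 holds others at -176, -78 and -21 over its entries. Full promoters are printed for IL6, CSF2 and CCL26, which had the most extreme log2 fold changes among the called members with a mean of at least 100 counts, in hypoxia (CCL26 and IL6) and in KO cells (CSF2 and IL6).
IL6: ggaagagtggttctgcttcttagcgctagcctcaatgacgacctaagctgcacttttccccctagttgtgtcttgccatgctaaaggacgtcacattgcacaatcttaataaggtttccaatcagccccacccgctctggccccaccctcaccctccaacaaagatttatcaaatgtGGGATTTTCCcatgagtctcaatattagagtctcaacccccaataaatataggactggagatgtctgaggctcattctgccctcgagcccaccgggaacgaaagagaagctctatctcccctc
CSF2: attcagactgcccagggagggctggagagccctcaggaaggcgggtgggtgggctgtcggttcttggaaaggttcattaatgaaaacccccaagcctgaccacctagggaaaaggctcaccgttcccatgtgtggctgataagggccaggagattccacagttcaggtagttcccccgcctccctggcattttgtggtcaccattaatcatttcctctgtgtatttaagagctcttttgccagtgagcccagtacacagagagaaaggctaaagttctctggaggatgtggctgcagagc
CCL26: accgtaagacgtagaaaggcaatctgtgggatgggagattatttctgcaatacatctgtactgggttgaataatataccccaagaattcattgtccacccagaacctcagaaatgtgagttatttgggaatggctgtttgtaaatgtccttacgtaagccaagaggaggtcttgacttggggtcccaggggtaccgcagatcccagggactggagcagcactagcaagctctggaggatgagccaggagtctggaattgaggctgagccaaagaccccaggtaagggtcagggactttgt

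These windows are chr7:22726950-22727249 (plus strand) for IL6, chr5:132073539-132073838 (plus) for CSF2 and chr7:75789697-75789996 (minus) for CCL26, all in GRCh38.p14. The capitals in IL6 mark the κB consensus, which begins at -73. The CSF2 and CCL26 windows hold no match, which says only that these letters are absent from these windows.

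The sum of estimated counts was between 153904088 and 213743693 per library in WT normoxia, between 76384973 and 195621872 in hypoxia and between 68599412 and 152328450 in KO cells. Levels are given as CPM, which are counts relative to the library's sum, after TMM scaling for composition. CCAR2, the targeted gene, was at 148 to 152 CPM in WT normoxia, 141 to 153 CPM in hypoxia and 54.6 to 60.7 CPM in KO cells. Its transcript was lower but still present in all 4 KO libraries. CA9, a carbonic anhydrase gene induced by hypoxia, was at 0.0661 CPM on average in WT normoxia, 4.86 CPM in hypoxia and 0.111 CPM in KO cells. NDRG1, VEGFA, ADM and SLC2A1, also checked, were higher on average in hypoxia than in WT normoxia. In KO cells they went both ways against WT normoxia. VEGFA (118 against 66.4 CPM), SLC2A1 (345 against 262) and NDRG1 (262 against 208) were higher, and ADM (17.1 against 35.3) was lower. Markers of the line (VIM, CD44, AXL, CAV1 and ANXA1) were high in every group and ESR1, PGR and CDH1 were under 1 CPM, although SPARC, listed as a high marker, was at only 1.26 to 1.63 CPM on average and of the markers listed as low, ERBB2 was at 91.5 to 99.7 CPM, GATA3 at 5.06 to 7.02 CPM and FOXA1 at 0.973 to 1.37 CPM on average. Of 12 blood and immune markers, 11 were under 1 CPM in every library of WT normoxia and of hypoxia and 10 in every KO library. Their summed level was 90.6 to 100 CPM, 98.3 to 114 CPM and 74.2 to 82.8 CPM in WT normoxia, hypoxia and KO cells, nearly all of it CD68. PTPRC, the pan-leukocyte marker, was at 0.209, 0.096 and 0.063 CPM on average, and MS4A1 was at 0 in all 12 libraries. The 5 endothelial markers summed to 8.14 to 10.3 CPM, 7.63 to 9.84 CPM and 10.2 to 11.2 CPM. PECAM1 among them was called higher in KO cells, at 5.46 against 2.60 CPM in WT normoxia. The others were not called and went both ways on average. KDR (5.01 against 6.22 CPM), VWF (0.168 against 0.332) and CDH5 (0.0156 against 0.0628) were lower in KO cells, and TEK (0.162 against 0.0875) was higher.

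Levels of different genes were compared per kilobase of annotated exon (GENCODE, GRCh38). In WT normoxia the most abundant member by this measure was RELA, the main canonical subunit, at 29.5 ± 0.880 CPM per kilobase (SD, n = 4). IL11, an IL-6 family cytokine, followed at 20.5 ± 1.10, TNFAIP3, the A20 feedback inhibitor, at 18.6 ± 0.726, CXCL8, the neutrophil chemokine IL-8, at 18.5 ± 1.14 and CSF1, the macrophage growth factor M-CSF, at 17.9 ± 1.21 CPM per kilobase. The SDs of TNFAIP3, CXCL8 and CSF1 overlap, and that of IL11 overlaps that of CXCL8, so these places in the order are not separated. NFKB2 at 17.0 and NFKBIA at 16.7 CPM per kilobase came next, with SDs that overlap that of CSF1. IL6, a cytokine widely associated with this line, was far down the order at 0.626 ± 0.169 CPM per kilobase. In KO cells CSF1 was the most abundant member, at 41.3 ± 1.29 CPM per kilobase, and IL11 had moved from place 2 to place 11, at 9.26 ± 0.598. In hypoxia the first 2 places were held by RELA at 28.6 and TNFAIP3 at 23.3 ± 2.81 CPM per kilobase. The SD of TNFAIP3 there overlaps that of CXCL8, at 20.3 ± 3.29.

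At the low end, 11 members had a mean under 100 estimated counts over the 12 libraries and 5 had a mean under 0.1 CPM, while no member was at 0 in every library. TNF, the founding member of its cytokine family, had at most 4 counts in any library, and the chemokine genes CCL5 and CXCL5 had at most 10 and 14. These 3 were too low to be tested in any comparison. CXCL10, an interferon-inducible chemokine, was between 0 and 0.108 CPM in WT normoxia, 0 and 0.0895 CPM in hypoxia and 0.0707 and 0.169 CPM in KO cells. The monocyte chemokine CCL2 was between 0.0924 and 0.410 CPM in all 12 libraries. In a culture, fewer cells that express a gene and less RNA per cell cannot be told apart in these bulk libraries.

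The first comparison asks which of these genes differed between WT cells after 24 hr of hypoxia and WT cells in normoxia. ICAM1, the adhesion molecule that leukocytes bind, and PTGS2, the inducible cyclooxygenase COX-2, rose in hypoxia, as did IL32, a proinflammatory cytokine, and CCL26, the eosinophil chemokine eotaxin-3. IL6 and CSF2, the growth factor GM-CSF, fell. A gene is called here if it had an adjusted p under 0.05 in the quasi-likelihood test of edgeR (Benjamini-Hochberg, over all genes tested) and a log2 fold change of 0.5 or more in either direction. Of the 33 members tested, 5 were called higher, 2 lower and 26 were not called. Over all 21776 genes tested 5.83% were called higher and 1.43% lower, 7.26% together. The fifth member called higher was TREM1, which passed the filter on low counts only through its hypoxia libraries. The median log2 fold change was -0.07 over the members tested and 0.01 over all genes tested, and 12 of the 33 were above 0.

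The second comparison asks which of them differed between CCAR2 KO and WT cells, both in normoxia. The 3 colony-stimulating factors CSF1, CSF2 and CSF3 rose by between 2.36- and 2.61-fold, and IL6 and IL1B rose as well. Of the NF-κB subunits, RELB and NFKB2, which form the non-canonical dimer, rose, and RELA and NFKB1 were not called. BIRC3, ICAM1 and CXCL3 also rose, and IL11 was the only member called lower. In all 10 of 33 members tested were called higher, 1 lower and 22 were not called, against 6.73% higher and 2.94% lower (9.67% together) of all 21410 genes tested. The median log2 fold change was 0.36 over the members and 0.01 over all genes, and 26 of the 33 were above 0. CXCL10 is among the 33 and the 26. It passed the filter on low counts only in the comparisons that include the KO libraries, where its mean is highest, and was not tested between hypoxia and normoxia.

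KO cells in normoxia were also compared directly with WT cells in hypoxia. Of 34 members tested 11 were called higher in KO cells, 4 lower and 19 were not called, against 7.08% higher and 7.88% lower (15% together) of 21158 genes. The 4 lower members were IL11, IL32, TNFAIP3 and PTGS2. The comparisons with WT normoxia share the same 4 control libraries, so their values for a member are given side by side and their likeness is not counted as a result.

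**Figure D1:**
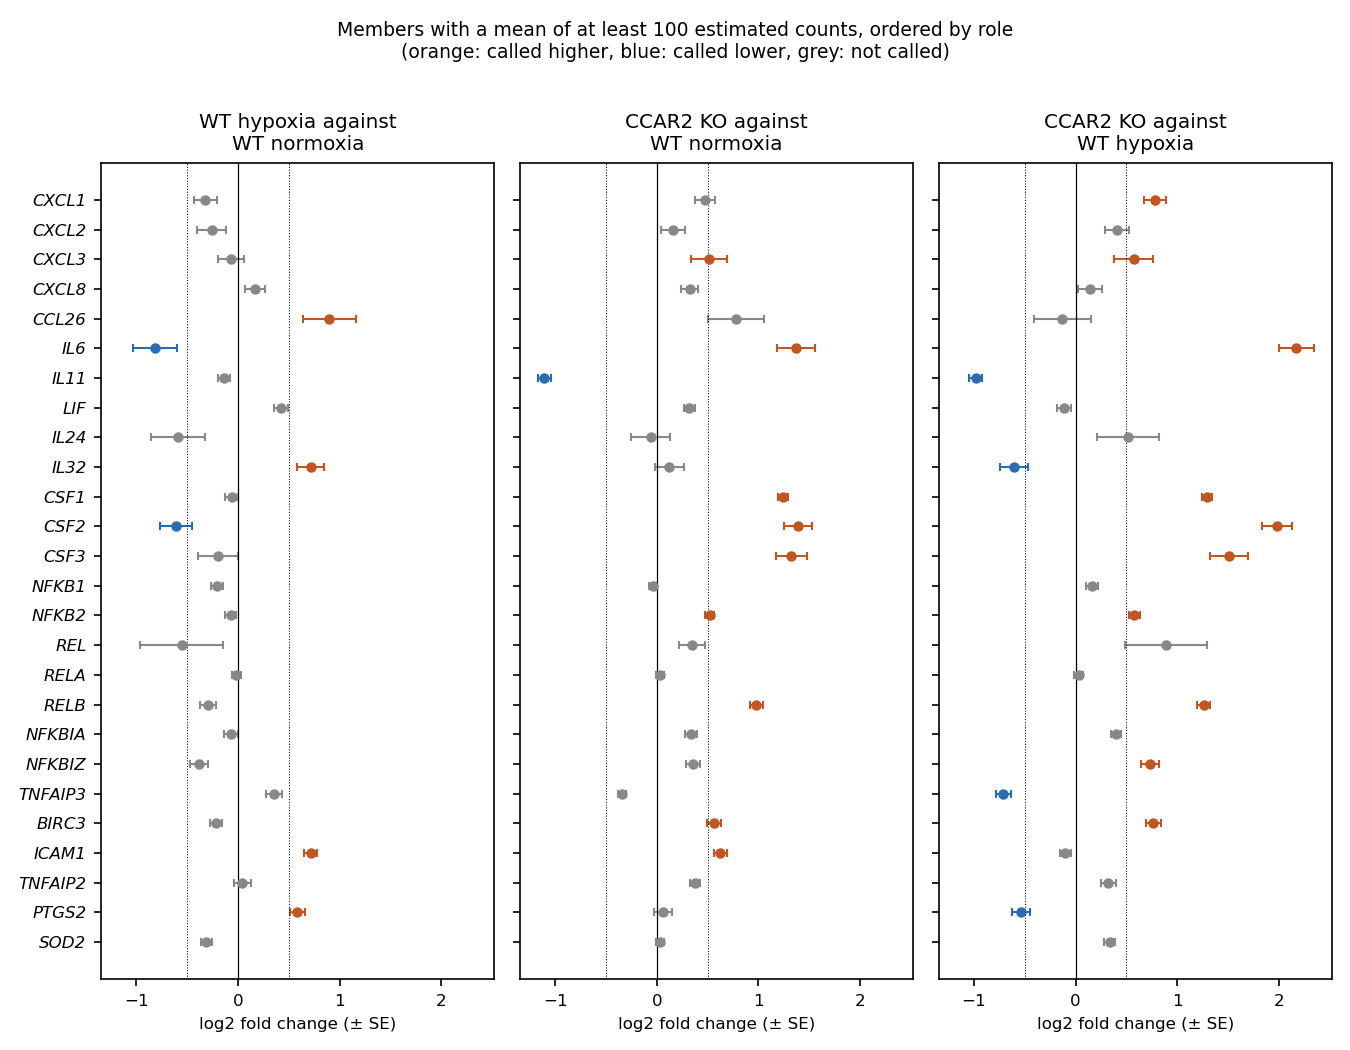
Log2 fold change with its standard error for the 26 members with a mean of at least 100 estimated counts, in the 3 comparisons; dotted lines mark 0.5 and -0.5, orange and blue mark genes called higher and lower, and grey marks genes not called. IL6 and CSF2 lie below 0 in hypoxia and above 1 in KO cells, CSF1 and CSF3 lie above 1 in KO cells and between -0.5 and 0.5 in hypoxia, and IL11 lies near -1 in both comparisons of KO cells.

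The colony-stimulating factors drive the growth and maturation of myeloid cells. CSF1 was at 89.5, 99.6, 95 and 105 CPM in WT normoxia, at 91.9, 84.0, 96.9 and 92.5 CPM in hypoxia and at 221, 216, 232 and 225 CPM in KO cells. Every KO library was above every WT library, and the WT groups overlapped. The log2 fold change in KO cells was 1.24 ± 0.05 (SE, adjusted p = 1.7e-08), a 2.36-fold rise, whereas in hypoxia it was -0.06 (adjusted p = 0.56). CSF2 was at 1.95, 2.76, 2.45 and 2.63 CPM in WT normoxia, at 1.28, 1.84, 1.57 and 1.59 CPM in hypoxia and at 5.16, 6.49, 6.09 and 7.18 CPM in KO cells. The 3 groups did not overlap, with hypoxia lowest and KO cells highest. CSF2 fell by 0.61 ± 0.16 on the log2 scale in hypoxia (adjusted p = 0.017) and rose by 1.39 ± 0.14 in KO cells (adjusted p = 1.3e-05). The fall in hypoxia was no longer called without WT normoxia replicate 2 (log2 fold change -0.54, adjusted p = 0.057) or replicate 4 (-0.56, adjusted p = 0.054). CSF3, which encodes the granulocyte factor G-CSF, was at 0.803, 0.939, 0.766 and 0.838 CPM in WT normoxia, at 0.857, 0.820, 0.568 and 0.638 CPM in hypoxia and at 1.92, 1.95, 1.81 and 2.47 CPM in KO cells. All KO libraries lay above all WT libraries. The log2 fold change was 1.32 ± 0.15 in KO cells (adjusted p = 3.8e-05) and -0.19 in hypoxia (adjusted p = 0.54).

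IL6 signals through gp130 and is a classical NF-κB target. It was at 1.78, 1.09, 1.32 and 0.997 CPM in WT normoxia, at 0.626, 0.844, 0.611 and 0.800 CPM in hypoxia and at 3.11, 3.50, 2.62 and 3.78 CPM in KO cells, that is 49 to 500 estimated counts per library. Hypoxia was lowest and KO highest with no overlap between the 3 groups. IL6 fell by 0.81 ± 0.22 on the log2 scale in hypoxia (adjusted p = 0.019) and rose by 1.37 ± 0.19 in KO cells (adjusted p = 0.00016), and KO cells exceeded hypoxia by 2.17 ± 0.17 (adjusted p = 3.3e-06), the highest log2 fold change of a called member in that comparison. The call in hypoxia was lost without WT normoxia replicate 1 (-0.63, adjusted p = 0.055), which had the highest level, and without hypoxia replicate 3 (-0.74, adjusted p = 0.057). The annotated span of IL6 is overlapped on the opposite strand by STEAP1B and AC073072.1, and strand use in counting is not stated in the sources.

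IL11, which also signals through gp130, went the other way in KO cells. Its level was 51.2, 54.8, 54.9 and 58.5 CPM in WT normoxia, 44.6, 49.5, 50.9 and 50.2 CPM in hypoxia and 22.6, 24.9, 26.5 and 25.0 CPM in KO cells. The KO libraries formed a separate low group, and the hypoxia libraries lay just below the normoxia ones without overlap. IL11 fell by 1.11 ± 0.06 on the log2 scale in KO cells (adjusted p = 1.2e-07), which leaves 0.464 of the WT level, and its log2 fold change in hypoxia was -0.14 ± 0.06 (adjusted p = 0.13). LIF, another gp130 cytokine, was between 41.7 and 45.6 CPM in WT normoxia, 51.0 and 63.3 CPM in hypoxia and 51.4 and 57.0 CPM in KO cells. It had adjusted p-values of 0.0016 and 0.00056 but log2 fold changes of 0.42 and 0.32, under the limit of 0.5, so it was not called. IL24, a member of the IL-10 family, was not called in any comparison, with means of 1.32, 0.856 and 1.23 CPM.

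IL32 was at 4.56, 6.37, 6.38 and 5.19 CPM in WT normoxia, at 8.39, 10.7, 8.27 and 8.88 CPM in hypoxia and at 5.70, 4.65, 6.18 and 7.27 CPM in KO cells. The hypoxia libraries were above all others, while KO and WT normoxia overlapped. The log2 fold change was 0.72 ± 0.13 in hypoxia (adjusted p = 0.0031) and 0.12 in KO cells (adjusted p = 0.58), and KO cells were lower than hypoxia by -0.61 ± 0.14 on the log2 scale (adjusted p = 0.0053). The interleukin-1 genes were low. IL1B, which encodes the cytokine IL-1β, was between 0.182 and 0.351 CPM in WT normoxia, 0.236 and 0.332 CPM in hypoxia and 0.506 and 0.900 CPM in KO cells. All 4 KO libraries were above the WT ones, and the log2 fold change was 1.29 ± 0.27 (adjusted p = 0.0032), at 21 to 119 estimated counts per library over the 12. IL1A was between 0.139 and 0.467 CPM in WT normoxia and between 0.527 and 0.913 CPM in KO cells, without overlap, with a log2 fold change of 0.98 ± 0.35 that was not called (adjusted p = 0.052).

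**Figure D2:**
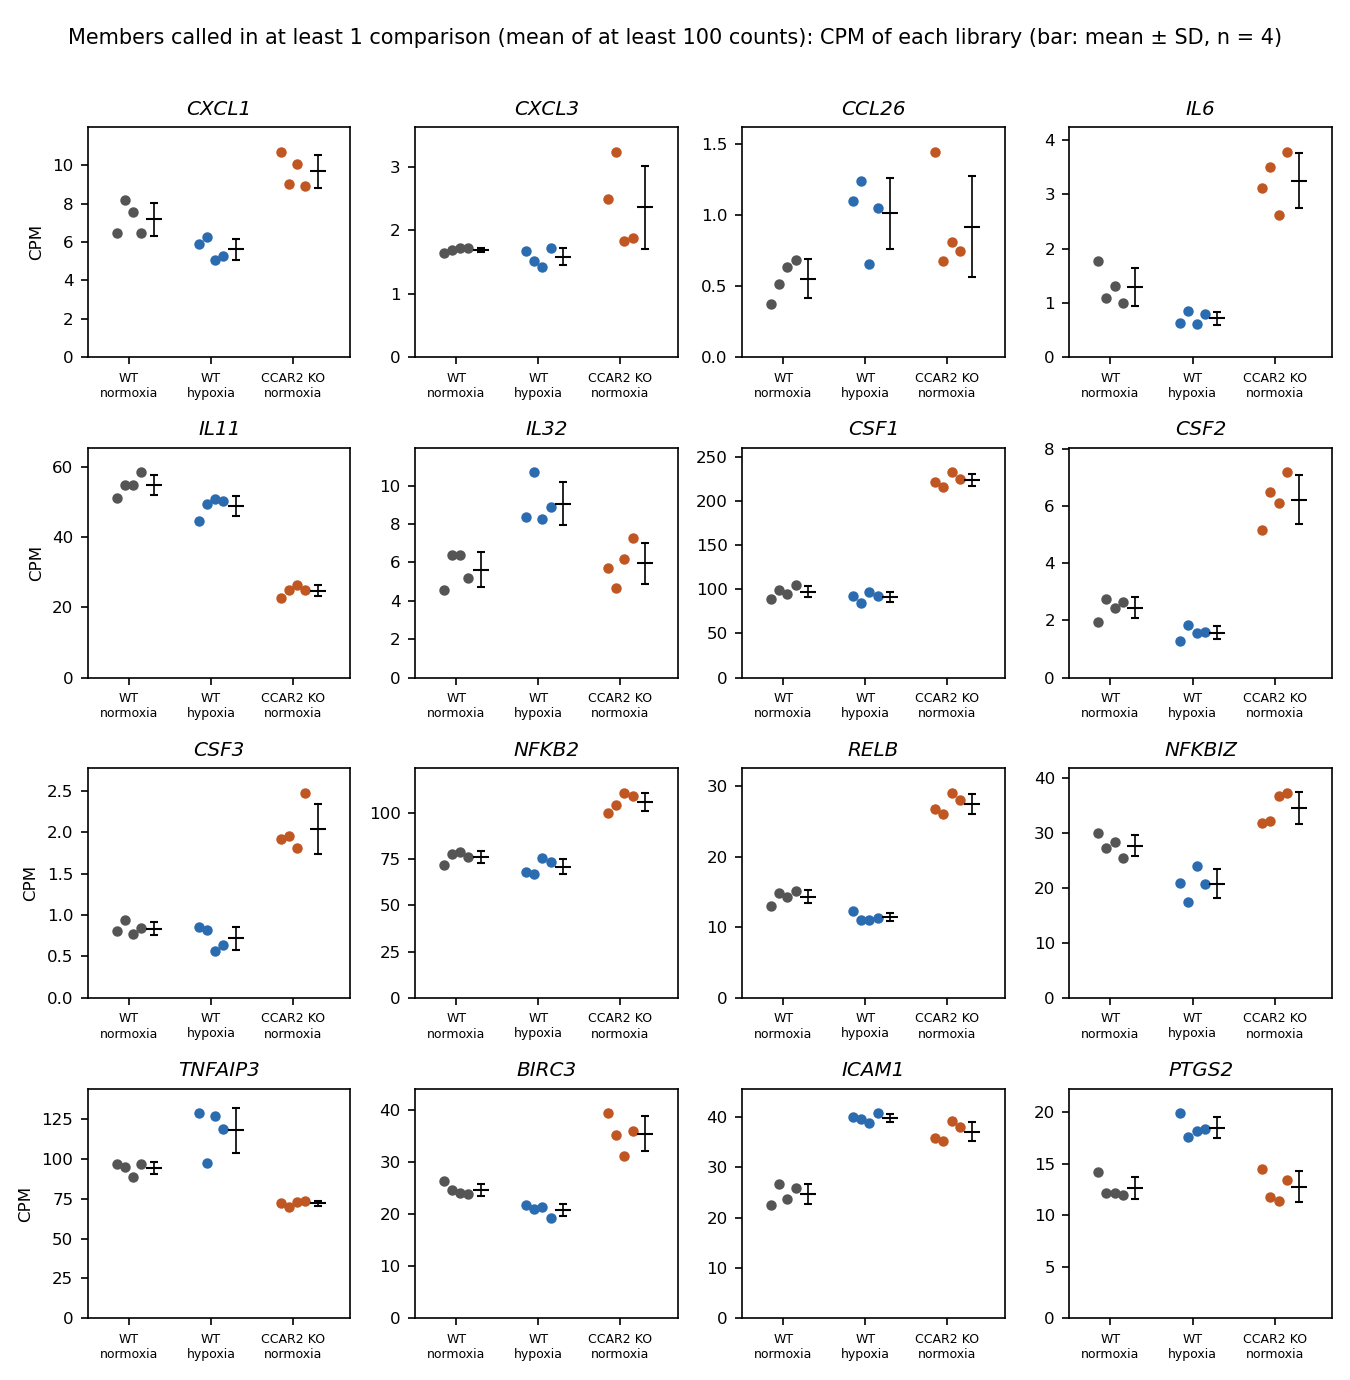
Level in CPM of the 16 members that were called in at least 1 comparison with a mean of at least 100 estimated counts; each point is 1 library of WT normoxia, WT hypoxia or CCAR2 KO normoxia and the bars give the mean ± SD of 4. KO libraries lie above all others for CSF1, CSF2, CSF3, IL6, RELB, NFKB2, BIRC3, CXCL1, NFKBIZ and, narrowly, CXCL3. They lie below all others for IL11 and TNFAIP3. Hypoxia libraries lie above all others for IL32, PTGS2 and, narrowly, TNFAIP3.

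Chemokines that carry the ELR motif attract neutrophils through CXCR2. CXCL1 was at 6.49, 8.20, 7.56 and 6.49 CPM in WT normoxia, at 5.91, 6.26, 5.07 and 5.30 CPM in hypoxia and at 10.7, 9.05, 10.1 and 8.91 CPM in KO cells. The groups did not overlap and kept the order hypoxia, WT normoxia, KO. CXCL1 was called only between KO cells and hypoxia (log2 fold change 0.78 ± 0.10, adjusted p = 0.00015), since the rise over WT normoxia was 0.47 ± 0.10 (adjusted p = 0.0028), just under the limit, and the difference in hypoxia was -0.32 ± 0.11 (adjusted p = 0.061). CXCL3 was at 1.65, 1.69, 1.72 and 1.72 CPM in WT normoxia, at 1.67, 1.51, 1.43 and 1.71 CPM in hypoxia and at 2.48, 3.23, 1.83 and 1.88 CPM in KO cells. The KO libraries were spread widely, and the nearest of them lay just above the highest WT normoxia library. The rise over WT normoxia was 0.51 ± 0.18 (adjusted p = 0.048), at the edge of both limits. It was lost with DESeq2, without the filter on low counts, with a replicate block (log2 fold change 0.48, adjusted p = 0.066) and on leaving out any 1 WT normoxia library, KO replicate 1 or KO replicate 2 (0.32 without the last, adjusted p = 0.13). The rise of CXCL3 in KO cells over hypoxia, 0.57 ± 0.19 (adjusted p = 0.038), was lost without the filter and on leaving out any 1 hypoxia library, KO replicate 1 or KO replicate 2.

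CXCL2 was not called in any comparison, with means of 4.87, 3.98 and 5.29 CPM in WT normoxia, hypoxia and KO cells. CXCL8 was between 38.7 and 45.0 CPM in WT normoxia, between 41.4 and 57.3 CPM in hypoxia and between 44.1 and 60.8 CPM in KO cells, with log2 fold changes of 0.17 in hypoxia and 0.32 in KO cells, and it was not called. CXCL1, CXCL2 and CXCL3 are paralogs whose longest open reading frames have 324 bases each and are 93.5% (CXCL1 and CXCL2), 90.7% (CXCL1 and CXCL3) and 94.4% (CXCL2 and CXCL3) identical. Between 0.573% and 5.73% of the 50-base windows of one transcript occurred exactly in another, and 0% of the 100-base windows did. Reads could therefore be split among these genes in a small part of their length, and their separate values carry that uncertainty.

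Among the other CXC chemokines, CXCL11, an interferon-inducible ligand of CXCR3, was between 0.0171 and 0.239 CPM in WT normoxia and between 0.227 and 0.491 CPM in KO cells, and the log2 fold change of 1.59 ± 0.59 was not called (adjusted p = 0.061). CXCL16 had means of 0.731, 0.726 and 0.617 CPM and was not called. CXCL10 and CXCL11 overlap ART3 on the opposite strand and CXCL16 overlaps MED11. Of the CC chemokines, CCL26 was at 0.376, 0.512, 0.634 and 0.686 CPM in WT normoxia, at 1.10, 1.24, 0.659 and 1.05 CPM in hypoxia and at 1.44, 0.674, 0.810 and 0.749 CPM in KO cells. Hypoxia replicate 3 lay within the range of WT normoxia, and KO replicate 2 did too. The log2 fold change was 0.90 ± 0.26 in hypoxia (adjusted p = 0.028) and 0.78 ± 0.28 in KO cells (adjusted p = 0.052). The hypoxia call was lost, at adjusted p-values between 0.052 and 0.072, without WT normoxia replicate 1 or 2 or hypoxia replicate 1, 2 or 4, and the KO difference passed with DESeq2, with the stricter filter, and without WT normoxia replicate 4 or KO replicate 2. CCL20, the ligand of CCR6, was lower in all 4 hypoxia libraries than in any WT normoxia library (0.199 against 0.364 CPM on average), and its log2 fold change of -0.87 was not called (adjusted p = 0.12).

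Of the 5 NF-κB subunits, RELB and NFKB2 were called higher in KO cells and none was called in hypoxia. RELB, the partner of p52, was at 13.0, 14.9, 14.2 and 15.1 CPM in WT normoxia, at 12.3, 11.1, 11.1 and 11.4 CPM in hypoxia and at 26.8, 26.0, 29.1 and 28.1 CPM in KO cells. KO libraries were highest and hypoxia libraries lowest, with no overlap. RELB rose by 0.98 ± 0.07 on the log2 scale in KO cells (adjusted p = 4.7e-07), a 1.97-fold rise. In hypoxia its log2 fold change was -0.29 ± 0.08 (adjusted p = 0.018), under the limit for a call. NFKB2 was at 71.6, 77.8, 78.5 and 76.2 CPM in WT normoxia, at 67.8, 66.8, 75.4 and 73.6 CPM in hypoxia and at 100, 104, 111 and 109 CPM in KO cells. Its KO libraries were above all WT libraries (log2 fold change 0.52 ± 0.05, adjusted p = 5.3e-06). That value is close to the limit, and it fell under it without the filter on low counts (0.49), without WT normoxia replicate 1 (0.48) and without KO replicate 3 (0.496).

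RELA was between 150 and 166 CPM in all 12 libraries and its log2 fold changes were -0.02 in hypoxia and 0.03 in KO cells. NFKB1 was between 70.8 and 77.7 CPM in WT normoxia, 55.4 and 66.7 CPM in hypoxia and 66.7 and 71.9 CPM in KO cells. Its log2 fold change in hypoxia, -0.21 (adjusted p = 0.028), was under the limit for a call, and in KO cells it was -0.04 (adjusted p = 0.55). REL was between 4.80 and 6.996 CPM in WT normoxia, 0.808 and 5.33 CPM in hypoxia and 6.91 and 8.93 CPM in KO cells, and was not called. Hypoxia replicate 2 alone had the value 0.808, from 67 estimated counts, while the other hypoxia libraries were at 4.74 to 5.33 CPM.

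Of the inhibitors and feedback regulators, BIRC3, the ubiquitin ligase cIAP2, was at 26.3, 24.6, 24.1 and 23.8 CPM in WT normoxia, at 21.7, 21.0, 21.4 and 19.2 CPM in hypoxia and at 39.4, 35.3, 31.2 and 36.0 CPM in KO cells. The KO libraries were above and the hypoxia libraries below the WT normoxia range. BIRC3 rose by 0.56 ± 0.07 on the log2 scale in KO cells (adjusted p = 6.2e-05), and its log2 fold change in hypoxia was -0.22 (adjusted p = 0.026), not called. TNFAIP3, a ubiquitin-editing enzyme that shuts the pathway off, was at 96.5, 94.7, 88.7 and 96.4 CPM in WT normoxia, at 129, 97.5, 127 and 118 CPM in hypoxia and at 72.4, 69.99, 72.6 and 73.2 CPM in KO cells. Its order was the reverse of that of BIRC3, with hypoxia highest and KO lowest and no overlap. The log2 fold changes were 0.35 ± 0.08 in hypoxia (adjusted p = 0.0084) and -0.35 ± 0.04 in KO cells (adjusted p = 3.5e-05), neither past the limit of 0.5. Between KO cells and hypoxia the difference of -0.71 ± 0.08 was called (adjusted p = 3e-05).

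NFKBIZ, an atypical nuclear IκB protein that acts as a cofactor at genes such as IL6, was at 30.0, 27.2, 28.3 and 25.4 CPM in WT normoxia, at 20.9, 17.5, 23.9 and 20.7 CPM in hypoxia and at 31.9, 32.1, 36.7 and 37.3 CPM in KO cells. The groups did not overlap and lay in the order hypoxia, WT normoxia, KO. Its log2 fold changes against WT normoxia were -0.39 ± 0.09 (adjusted p = 0.0078) in hypoxia and 0.36 ± 0.07 (adjusted p = 0.0016) in KO cells, and the difference of 0.73 ± 0.09 between KO cells and hypoxia was called (adjusted p = 9.8e-05). NFKBIA, the canonical IκBα, was between 36.6 and 44.4 CPM in WT normoxia and between 47.6 and 49.8 CPM in KO cells. Its log2 fold change of 0.34 ± 0.06 in KO cells (adjusted p = 0.0012) was under the limit, and in hypoxia it was -0.07.

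Among the effector targets, ICAM1 and PTGS2 were called higher in hypoxia, besides TREM1 at the few counts given below, and ICAM1 in KO cells. ICAM1 was at 22.5, 26.7, 23.6 and 26.0 CPM in WT normoxia, at 39.9, 39.5, 38.7 and 40.7 CPM in hypoxia and at 35.8, 35.1, 39.2 and 38.0 CPM in KO cells. Both other groups lay above WT normoxia without overlap. It was the one member called higher in both comparisons with WT normoxia, at 0.71 ± 0.06 in hypoxia (adjusted p = 5.2e-05) and 0.62 ± 0.07 in KO cells (adjusted p = 2.1e-05) on the log2 scale. KO cells and hypoxia were not called different (log2 fold change -0.10 ± 0.05, adjusted p = 0.16). ICAM1 is overlapped on the opposite strand by AC011511.2 and AC011511.5. The same holds for IL32 (AC108134.3), TNFAIP3 (AL357060.1), LIF (LIF-AS1 and AC004264.1), RELA (AP001362.2) and CCL5 (AC015849.1). Entries on the same strand overlap IL32 (RNU1-125P), REL (RNU4-51P and AC010733.2), CXCL11 (AC112719.1) and TREM1 (AL391903.1).

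PTGS2 was at 14.2, 12.2, 12.1 and 11.95 CPM in WT normoxia, at 19.9, 17.6, 18.2 and 18.4 CPM in hypoxia and at 14.6, 11.8, 11.4 and 13.5 CPM in KO cells. Hypoxia libraries were above all others, and KO cells overlapped WT normoxia. PTGS2 rose by 0.58 ± 0.07 on the log2 scale in hypoxia (adjusted p = 0.00039), with 0.06 in KO cells (adjusted p = 0.67). The difference of KO cells from hypoxia was -0.54 ± 0.09 on that scale (adjusted p = 0.00053), a call that was lost without hypoxia replicate 1 (-0.499) or KO replicate 3 (-0.48). TREM1, a receptor that amplifies myeloid inflammation, had 0 counts in 3 WT normoxia libraries and 5 in the other, 9 to 29 counts in hypoxia and 0 to 10 in KO cells. All hypoxia libraries were above all WT normoxia libraries, at levels of 0.0759 to 0.281 CPM. TREM1 passed the filter on low counts in this comparison only through the hypoxia libraries, where it is high, and was filtered out of the comparison of KO cells with WT normoxia, so its call in hypoxia (adjusted p = 0.014) is given as a description, and the size of a fold change over such counts depends on the prior count of the fit. TNFAIP2, a TNF-inducible gene, was not called, with means of 70.3, 71.0 and 88.9 CPM and a log2 fold change of 0.38 ± 0.05 in KO cells (adjusted p = 0.00013). SOD2, the mitochondrial superoxide dismutase, had a log2 fold change of -0.31 in hypoxia (adjusted p = 0.0023), from a mean of 114 to 89.8 CPM, and of 0.03 in KO cells, and was not called. The SOD2 span in the annotation also holds a second SOD2 entry and WTAP on the opposite strand, so its level is uncertain.

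Taking the members by pattern over the 3 comparisons, IL6 and CSF2 were called lower in hypoxia and higher in KO cells against both WT groups. BIRC3, CSF1, CSF3, CXCL3, IL1B, NFKB2 and RELB were called higher in KO cells against both WT groups and not called in hypoxia. Leaving out certain single libraries, named above, lost the hypoxia calls of IL6 and CSF2. The same holds for the KO calls of CXCL3 in both comparisons and of NFKB2 against WT normoxia. IL32 and PTGS2 were called higher in hypoxia than in either normoxic group, for PTGS2 against KO cells with the 2 libraries named above included. The 15 members tested and not called in any comparison were CCL2, CCL20, CXCL2, CXCL8, CXCL11, CXCL16, IL1A, IL24, LIF, NFKB1, NFKBIA, REL, RELA, SOD2 and TNFAIP2. Without the limit on size, 16 members were higher and 2 lower in KO cells at an adjusted p under 0.05, against 14.9% and 15.4% of all genes tested, and 7 were higher and 7 lower in hypoxia, against 11.6% and 12%. The KO libraries lay entirely above WT normoxia for 16 of the 33 members tested and entirely below for 2, against 13.3% and 18.4% of all genes. In hypoxia the numbers were 6 above and 10 below, against 11.6% and 16%. TREM1, which passed the filter only through its hypoxia libraries, is among the 7 higher and the 6 above. Between KO cells and hypoxia 15 members were higher and 4 lower at the adjusted p alone, against 17.1% and 17.8% of all genes, and 17 lay entirely above and 5 entirely below, against 18% and 17.8%. TREM1 is among these 5 too. By an exact permutation test on single members a complete separation gives p = 0.0286, the smallest that 4 against 4 libraries allow. The κB consensus was in the promoters of 4 of the 7 members with an entry that were called higher in KO cells and of 11 of the 19 not called. In hypoxia it was in 1 of 5 called higher, 1 of 2 called lower and 12 of 20 not called, and between KO cells and hypoxia in 6 of 8 called higher, 2 of 4 called lower and 7 of 16 not called.

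Another 111 genes of the pathway were listed by role. In hypoxia 87 of them were tested, of which 7 were called higher and 3 lower, against 5.83% and 1.43% of all genes. Of 88 tested in KO cells against WT normoxia, 23 were called higher and 3 lower, against 6.73% and 2.94%. Between KO cells and hypoxia 20 of 87 were higher and 6 lower, against 7.08% and 7.88%. The 7 higher in hypoxia and the 6 lower than hypoxia are near these shares. The median log2 fold change of these genes was -0.02 in hypoxia and 0.23 in KO cells, where 65 of the 88 were above 0.

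Receptors and decoys held 9 genes called higher and 2 lower of 24 tested in KO cells (6.73% and 2.94% of all genes). IL1R1, the signalling receptor of IL-1, rose from 1.07 ± 0.426 to 3.90 ± 1.69 CPM (log2 fold change 1.91 ± 0.39, adjusted p = 0.0028), although the groups overlapped. The Toll-like receptor genes TLR3 and TLR4 rose by 1.22 (adjusted p = 3.4e-05) and 0.98 (adjusted p = 2e-07) on the log2 scale. CSF2RA, the α chain of the receptor for GM-CSF, fell by 0.70 on that scale (adjusted p = 1.1e-05), from 15.4 to 9.22 CPM, while its ligand gene CSF2 rose. CSF1R, the receptor for CSF1 and also on the list of immune markers, was at 0.254 CPM in WT normoxia and 0.745 CPM in KO cells and was called higher. CD14, a monocyte marker on that list, was called higher too, at 0.603 and 0.930 CPM. These were the 2 called of the 5 tested on that list. The rest went both ways on average between WT normoxia and KO cells. LYZ was at 0.0486 and 0.170 CPM and ITGAM at 0.0280 and 0.0488 CPM. CD68 was at 95.7 and 77.0 CPM and PTPRC at 0.209 and 0.063 CPM. Whether cells of another type have a part in these values was not tested. In hypoxia 2 of 23 receptors were called higher and 3 lower (5.83% and 1.43% of all genes). IL11RA rose by 0.69 and OSMR, the oncostatin M receptor, by 0.65, whereas LIFR fell by 0.57 and TLR3 fell by 0.70 (adjusted p = 0.036). The TLR3 call in hypoxia was lost in 6 of the 8 fits that left out 1 library, without WT normoxia replicate 1, 2 or 4 or hypoxia replicate 1, 3 or 4. LIFR was higher in KO cells than in hypoxia by 0.98 (adjusted p = 3.8e-06).

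The IKK complex, IκB proteins and adaptors were mostly not called. In KO cells 5 of 37 were called higher and 0 lower, against 6.73% and 2.94% of all genes. At the adjusted p of edgeR alone 11 were higher and 4 lower, against 14.9% and 15.4% of all genes. TRAF1, a TNF receptor adaptor, rose by 1.20 ± 0.08 on the log2 scale, from 7.35 to 16.4 CPM (adjusted p = 2.8e-07). BCL3, an IκB-like partner of p50 and p52, rose by 1.06 ± 0.08, from 14.1 to 28.6 CPM, IRAK2 by 0.71 and IKBKE by 0.57. The remaining gene called higher was MAP3K14, the kinase NIK of the non-canonical arm, at 17.1 CPM in WT normoxia and 23.8 CPM in KO cells (log2 fold change 0.51 ± 0.07, adjusted p = 0.00012), named after its value was seen. In hypoxia 1 of the 37 was called, against 5.83% higher of all genes. This was IKBKB, the catalytic subunit IKKβ, which rose by 0.64 ± 0.06, from 50.3 to 76.6 CPM (adjusted p = 4.9e-05).

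In KO cells 9 of the 27 other targets and cytokines tested were called higher and 1 was called lower, against 6.73% and 2.94% of all genes. CD82, a tetraspanin, rose from 5.43 ± 0.889 to 20.7 ± 0.974 CPM (log2 fold change 1.97 ± 0.11, adjusted p = 9.7e-08). TNFRSF9 rose by 1.24 (adjusted p = 0.0015), although the groups overlapped. Complement C3 rose by 1.02 (adjusted p = 0.00047) and TNFSF15 by 0.78 (adjusted p = 5.7e-05). The one called lower was F3, which encodes tissue factor, at 389 CPM in WT normoxia, 226 CPM in KO cells and 575 CPM in hypoxia. In hypoxia F3 rose by 0.60 (adjusted p = 3.8e-05), and TNFSF10, the death ligand TRAIL, rose by 1.09 (adjusted p = 5.9e-05), the highest of the 4 of 27 called higher in this list (5.83% of all genes). CCL28 rose by 0.79 and TNFSF15 by 0.60 in hypoxia. KO cells were lower than hypoxia for F3 by -1.35 (adjusted p = 1.3e-08) and higher for CD82 by 2.07 (adjusted p = 2e-08) on the log2 scale.

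**Figure D3:**
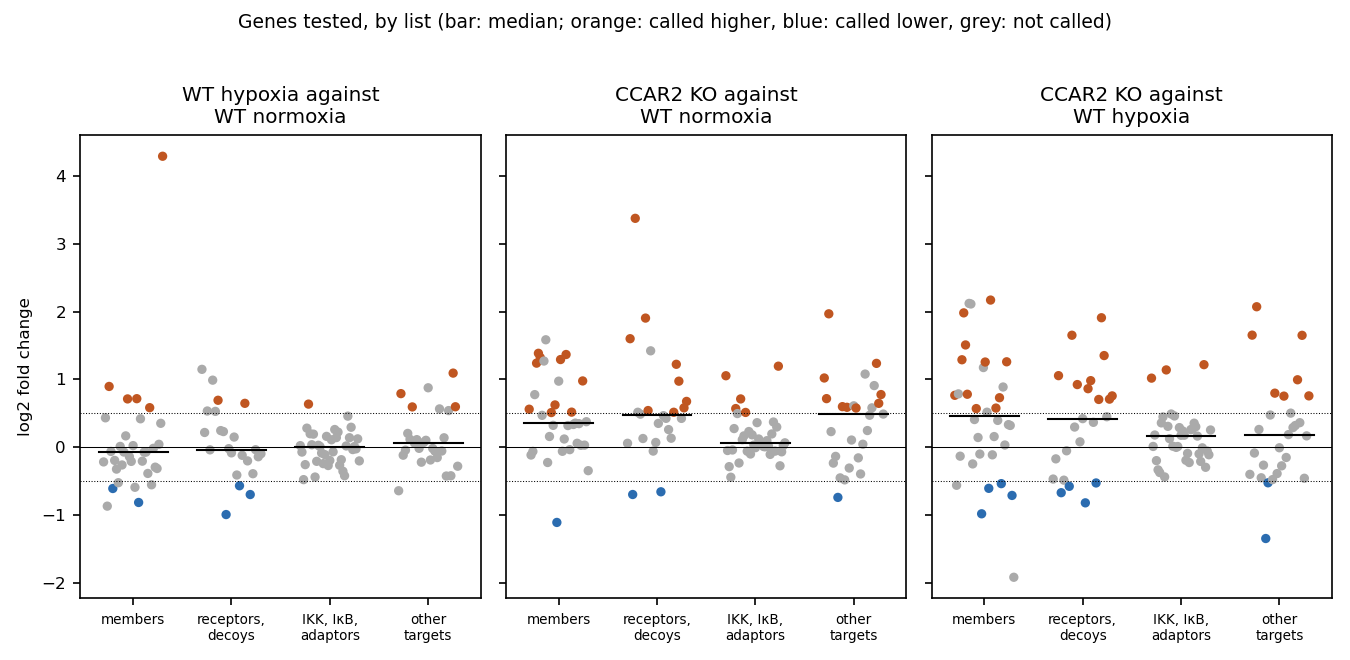
Log2 fold change of every gene tested on the member list and on the 3 lists of other pathway genes, in the 3 comparisons; each point is 1 gene, the bar is the median of the list, dotted lines mark 0.5 and -0.5, and colour marks the calls as named in the title. The median of the members is 0.36 in KO cells against WT normoxia and -0.07 in hypoxia, with 0.01 over all genes tested in each. In KO cells against WT normoxia points called higher outnumber those called lower on each list. They also do so over all genes tested, with 6.73% higher and 2.94% lower. In hypoxia the same holds for every list but the receptors, where 2 are higher and 3 lower, against 5.83% and 1.43% of all genes.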

How the data were processed

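RNA-seq values of 12 MDA-MB-231 libraries were used, grouped by the labels into 4 of WT normoxia, 4 of WT hypoxia and 4 of CCAR2 KO normoxia. The members and gene lists were chosen with earlier results of these data known. According to the methods, the authors aligned poly-A paired-end reads with Hisat2 and assembled and quantified them with StringTie, whereas the submitters' processing notes name HISAT2, SAMtools and featureCounts. The methods name an RNA kit, a library kit and replicate numbers that differ from the labels. The deposited values are expected counts, whole-number estimates per gene with no scaling to library size. In 12 of 12 libraries more genes had the value 4 than 3 or 5, so their sums are not numbers of reads. Genome build, annotation, strand and read length are not given in the sources used here. Estimation can move reads between overlapping or near-identical genes.

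Each pair of groups was fitted in R 4.3.3 with edgeR 4.0.16 (TMM, filterByExpr, glmQLFit, glmQLFTest) over all genes that passed the filter, with Benjamini-Hochberg adjustment, and calls needed an adjusted p under 0.05 and a log2 fold change of 0.5 or more in either direction, the limits in the study's methods. Errors of log2 fold changes are standard errors. CPM were scaled with TMM over the 12 libraries, and their errors are SDs. For single members an exact permutation test, two-sided, was run on log2(CPM + 0.01). Levels per kilobase used the exon union of GENCODE v29 (GRCh38), which need not be the annotation of the counts. Promoters and their matches came from the RefSeq table of GRCh38.p14, and proteins were not used here. Values per library are given for members called in at least 1 comparison with a mean of at least 100 estimated counts. Of each list of other pathway genes, up to 4 per comparison with the largest absolute log2 fold change among those called with such a mean are named, and MAP3K14, CSF1R, and F3 in KO cells against WT normoxia were added after their values were seen. The test was checked on simulated counts. Alternatives were RLE normalization, DESeq2 1.42.0, no filter, a stricter one of 10 counts per library, 1 fit of all 12 libraries, leaving out each library, a replicate block, the adjusted p alone and a log2 limit of 1. For IL1B, TREM1 and the other pathway genes named they were added after the data had been seen.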

Additional observations from a re-analysis of the deposited data

Results flagged for a closer look

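Each of the 37 members was examined in each of the 3 groups for a library that lay far from its group, taking the gap to the nearest library over the range of the 4 and Dixon's 95% critical value for it. Of the 111 groups 11 exceeded it, where 5.55 are expected by chance in groups without ties. A group with 3 libraries at 0 reaches a ratio of 1 through its ties, as TNF and TREM1 did here. REL in hypoxia replicate 2 was low, at 0.808 CPM against 4.74 to 5.33 CPM in the others, a ratio of 0.87, and REL in KO replicate 4 was high, at 8.93 against at most 7.18 CPM (ratio 0.868). CXCL8 was high in the same hypoxia replicate 2, at 57.3 CPM against at most 43.1 CPM (0.889), and so was CXCL11, at 0.241 against at most 0.0354 CPM (0.853). CXCL16 was high in hypoxia replicate 1, at 0.997 against at most 0.663 CPM (0.892). In WT normoxia, LIF was low in replicate 2, at 41.7 against at least 45.2 CPM (0.915), and PTGS2 was high in replicate 1, at 14.2 against at most 12.2 CPM (0.885). WT normoxia replicate 4 was high for CCL20, at 0.574 against at most 0.307 CPM (0.888), and low for IL1A, at 0.139 against at least 0.419 CPM (0.855). TREM1 in that library and TNF in hypoxia replicate 3 had the only counts of their group (ratio 1 each), 5 and 1. Of these genes PTGS2 and TREM1 were called in hypoxia and the rest in no comparison.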

How the results depend on the processing

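With a log2 limit of 1 the members called higher and lower were 1 and 0 in hypoxia, 5 and 1 in KO cells against WT normoxia and 6 and 0 in KO cells against hypoxia, and the other pathway genes 1 and 0, 9 and 0, and 10 and 1. The 1 member higher in hypoxia was TREM1, which passed the filter only through its hypoxia libraries. Shares of all genes called were not computed at this limit or for the alternative fits. Those counts therefore have no background beside them and are not read as results about the members. With the adjusted p alone the members were 7 and 7, 16 and 2, and 15 and 4, and the other pathway genes 14 and 15, 37 and 12, and 39 and 18. Of all genes tested 11.6% and 12%, 14.9% and 15.4%, and 17.1% and 17.8% passed the adjusted p alone. Leaving out 1 library gave 4 to 5 members higher and 1 to 3 lower in hypoxia (1 lower without WT normoxia replicate 1, 2 or 4 or hypoxia replicate 3), 8 to 11 higher and 1 to 1 lower in KO cells against WT normoxia, and 10 to 13 and 3 to 4 against hypoxia. For the other pathway genes it gave 7 to 7 and 2 to 4, 20 to 24 and 3 to 4, and 19 to 21 and 6 to 7. The counts under RLE, DESeq2, either filter, 1 fit of all libraries and the replicate block were within 1.5 times the main ones. PTGS2 in KO cells reversed without KO replicate 1 (log2 fold changes from -0.0074 to 0.11 over the libraries left out), and IL1B in hypoxia reversed without WT normoxia replicate 2 (-0.14), hypoxia replicate 1 (-0.05) or hypoxia replicate 4 (-0.04), with 0.14 as the highest value, none of them called. PTGS2 between KO cells and hypoxia fell under the limit without hypoxia replicate 1 (-0.499) or KO replicate 3 (-0.48). CXCL1 passed it in KO cells without WT normoxia replicate 2 (0.53) or KO replicate 4 (0.51), and TREM1 between KO cells and hypoxia passed with DESeq2 (-1.97, adjusted p = 0.049). The cause of these changes was not tested.

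The replicate numbers gave no clear pairing of the libraries, but this check cannot exclude one. Between hypoxia and normoxia the deviations correlated at 0.20 and 0.26 for replicates 1 and 2, and at -0.001 and -0.01 for replicates 3 and 4. Libraries of the same number had correlations of their deviations between -0.01 and 0.26 in hypoxia and normoxia, -0.12 and 0.12 in KO cells and WT normoxia, and 0.03 and 0.13 in KO cells and hypoxia, and 4, 2 and 3 of 8 libraries correlated best with their own number. With a replicate block 5 members were higher and 2 lower in hypoxia, 9 and 1 in KO cells against WT normoxia and 11 and 4 against hypoxia, and the other pathway genes were 7 and 3, 23 and 3, and 19 and 6. Between replicates the chi-square of the counts over its degrees of freedom was 14.0 to 97.6 for 18 pairs, which cannot tell whether any pair is 1 library deposited in 2 samples. Depth limits the members under 100 counts: TNF, CCL5 and CXCL5 could not be tested and a change in CXCL10, CXCL11, CXCL16, IL1A, IL1B, CCL2, CCL20 or TREM1 rests on few counts.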
